A study of Mus musculus with 18 samples.

Results

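The genes described here are 7 genes of the astrocyte endfoot and its potassium and water channels: Kcnj10, Kcnj16, Aqp4, Dtna, Dag1, Mlc1 and Hepacam. They were picked by symbol, with no expression value in the rule but with earlier results of these data known, and each symbol was found once among the 55291 gene symbols of all 18 libraries. RNA came from the right hippocampus of male C57BL/6J mice, 3 to 4 mice pooled per sample, whose right CA3 had received at 6 weeks of age an AAV-DJ carrying EGFP-Rpl10a, a green fluorescent ribosomal protein, behind the astrocyte promoter GfaABC1D. Mice of the KA group received kainic acid, a glutamate receptor agonist, in the right dentate gyrus 2 weeks after the AAV, and their RNA was taken 14 days after KA. AAV control mice carried the AAV alone, with RNA taken 2 weeks after it, and PBS mice received PBS after the AAV, at a time not given in the sources used here. Each group had 3 samples (#1 to #3), and each sample gave an IP library, RNA on ribosomes pulled down with an anti-GFP antibody, and an input library, total RNA of the same homogenate. All 3 groups thus carried the same AAV and transgene, and KA and AAV control mice also differed in the time between AAV and RNA.

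Astrocytes send endfeet to blood vessels and to the pial surface, where potassium and water channels are held in clusters. Kcnj10 encodes Kir4.1, the inwardly rectifying channel through which astrocytes take up potassium released by neurons, and Kcnj16 encodes Kir5.1, which joins Kir4.1 in mixed channels. Aqp4 encodes aquaporin-4, the water channel of the endfoot. Aquaporin-4 is anchored by the dystrophin complex, in which dystroglycan (Dag1) binds laminins and agrin outside the cell and alpha-dystrobrevin (Dtna) binds dystrophin and syntrophins inside. Mlc1 and Hepacam (GlialCAM) encode membrane proteins that bind each other at astrocyte junctions and take part in the control of cell volume, and mutations in both are known from a leukodystrophy with brain swelling.

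On GRCm38 (GENCODE vM21) Kcnj10 lies at chr1:172341210-172374085 and Kcnj16 at chr11:110968033-111027968, both on the plus strand. Dag1 lies at chr9:108204634-108263958 on the minus strand, Mlc1 at chr15:88955884-88979007 on the minus strand and Hepacam at chr9:37367351-37386575 on the plus strand. All are protein-coding, and counts were taken per gene. None of these 5 overlaps another annotated gene.

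The promoters of the Kir4.1 and Kir5.1 genes are shown because Kcnj10 rose and Kcnj16 fell against PBS in IP. They are the 250 bases before the annotated start, 5′ to 3′ on the gene's strand, from RefSeq on GRCm38.p6, at chr1:172340960-172341209 for Kcnj10 and chr11:110967783-110968032 for Kcnj16. RefSeq lists 4 start sites for Kcnj16, of which the most upstream is shown, and the counts do not separate them. Capitals mark matches, on either strand, to 5 short motifs spelled out after the sequences.
Kcnj10 promoter: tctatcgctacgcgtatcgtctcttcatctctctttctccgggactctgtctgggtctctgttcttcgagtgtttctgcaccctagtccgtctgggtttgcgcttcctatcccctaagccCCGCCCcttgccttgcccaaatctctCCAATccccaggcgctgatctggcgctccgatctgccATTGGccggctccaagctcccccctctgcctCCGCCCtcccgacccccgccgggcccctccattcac
Kcnj16 promoter: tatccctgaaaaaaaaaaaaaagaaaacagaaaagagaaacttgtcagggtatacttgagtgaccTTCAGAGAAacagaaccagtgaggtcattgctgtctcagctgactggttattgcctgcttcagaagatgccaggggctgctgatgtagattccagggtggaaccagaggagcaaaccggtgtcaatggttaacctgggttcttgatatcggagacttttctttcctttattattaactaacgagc
Kcnj10 held 2 GC boxes, starting 130 and 36 bases before the start site, and 2 CCAAT boxes, starting 104 and 67 bases before it, and no matches overlapped. The Kcnj16 window shown held 1 STAT element, starting 185 bases before the start site, and none of the other motifs. The window of Kcnj16 start site 4, the most downstream, held 1 GC box and 1 CCAAT box, starting 46 and 60 bases before it. Those of start sites 2 and 3 held none of the 5 motifs. The GC box was searched as GGGCGG, and 32.7% of all 32851 RefSeq promoter windows of this length held it. The CCAAT box was searched by the letters of its name, and 33.8% of windows held it. The STAT element was searched as TTCNNNGAA, in which N is any base, and 7.02% of windows held it. The AP-1 element was searched as TGANTCA, which occurs in 6.75% of windows. The cAMP response element was searched as TGACGTCA, which occurs in 1.55% of windows, and neither promoter held it or an AP-1 element. The bases were 62% G or C for Kcnj10 and 42.8% for Kcnj16. Promoter entries matched 5 of the 7 genes (Kcnj10, Kcnj16, Dag1, Mlc1 and Hepacam).

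Library totals ran from 7991681 to 16032180 counts. KA and AAV control #1 and #2 came from sequencing run 1, KA and AAV control #3 from run 2 and all PBS libraries from run 3, so that PBS and run 3 cannot be told apart. In IP, all 8 astrocyte markers were above 0 in every group, with a summed FPKM (fragments scaled to gene length and library total) of 6019 to 7563 in KA, 6395 to 9707 in AAV control and 6721 to 11764 in PBS. The sum joins markers that moved apart: against AAV control in IP 1 of the 8 rose and 3 fell (1 and 6 with the replicate block), with a median log2 fold change of -0.74, and against PBS 1 rose and 3 fell, with a median of -0.32. Of all genes tested 20.1% passed against AAV control (34.5% with the block) and 37.0% against PBS. Mean Gfap was 3684 FPKM in KA IP, 677 in AAV control IP and 946 in PBS IP, and mean Aldoc was 1431, 4162 and 5315. In each group 8 of 8 astrocyte markers were higher in IP than in input at an adjusted p under 0.05. In KA 6 of 6 oligodendrocyte markers were too. Of all genes tested 34.4% passed in KA, 39.7% in AAV control and 56.3% in PBS. Markers of other cells also differed between groups. The 6 oligodendrocyte markers summed to 1279 to 2439 FPKM in KA IP, to 247, 316 and 1037 in AAV control IP #1, #2 and #3 and to 277 to 549.5 in PBS IP. The 8 neuron markers summed to 309.5 to 374 in KA IP, 132 to 169 in AAV control IP and 133 to 229 in PBS IP. In input, the 6 microglia markers summed to 643 to 1162 in KA, 71.6 to 110.2 in AAV control and 83.5 to 89.4 in PBS, the astrocyte markers to 1330 to 1353, 521 to 888 and 765 to 909, and the 5 choroid plexus markers to 2487 to 4480, 16.1 to 2981 and 18.5 to 289.97. No marker was at 0 throughout a group. The part of these cell types in the results below was not tested.

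After KA, the 7 genes did not move as one. In IP, Kcnj16 fell against both controls, Aqp4 rose against AAV control and Kcnj10 rose against PBS, while Dtna, Dag1, Mlc1 and Hepacam had lower fitted levels than both controls without passing the test. Same-numbered KA and AAV control samples, which also share a sequencing run, deviated together. The replicate number was taken as a block from these same data, as the labels state no pairing. With this block Kcnj10 also rose and Dag1, Mlc1 and Hepacam fell against AAV control in IP. Against PBS in IP the call of Kcnj10 was lost with the block (adjusted p = 0.0501). In input, Kcnj10 and Aqp4 rose against both controls, no member fell, and Kcnj16 had fitted differences near 0. The ratio of IP to input was lower after KA for all 7 genes against both controls, and the difference passed the test for 4 of 7 against each control (13.3% of all genes tested against AAV control and 25.0% against PBS). With the homogenate that IP and input share as a block, it passed for 7 of 7 and 6 of 7 (35.7% and 37.6% of all genes).

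**Figure D1:**
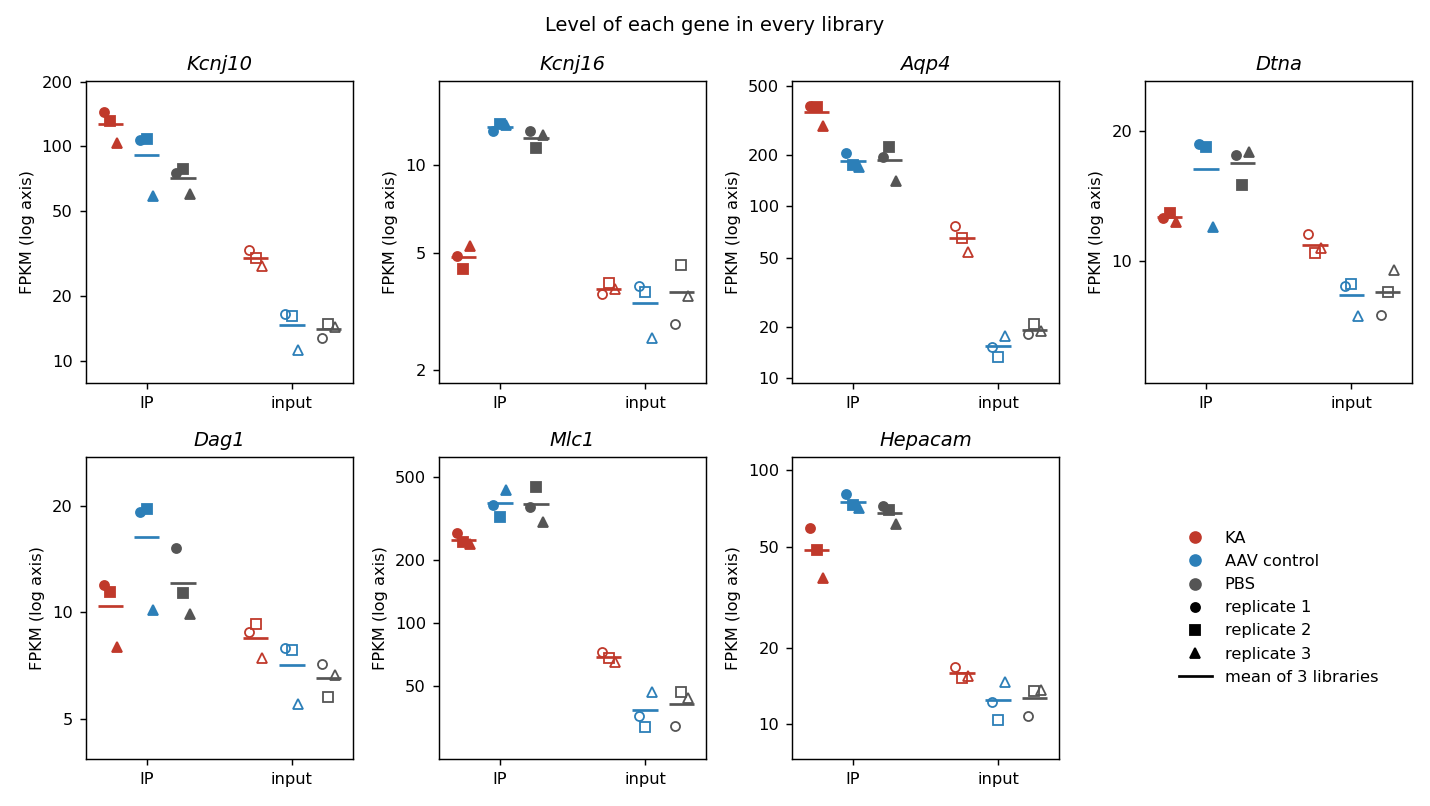
FPKM (log axis) of the 7 genes in all 18 libraries, with IP libraries as filled and input libraries as open symbols, groups by colour, replicates by shape and the group mean as a line. Kcnj16 in KA IP sits at 4.42 to 5.31, below the 11.4 to 13.8 of all 6 control IP libraries, while Aqp4 in KA IP sits at 293 to 383, above the 141 to 223 of the controls.

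Kcnj10 was abundant in IP. Its FPKM was 144, 132 and 104 in KA IP #1, #2 and #3, 107, 108 and 59.0 in AAV control IP and 75.4, 78.4 and 60.2 in PBS IP, or 126 ± 20.6, 91.4 ± 28.1 and 71.4 ± 9.74 (mean ± SD, n = 3 each). KA IP #3 lay below AAV control IP #1 and #2, so these groups overlapped, whereas all KA values lay above all PBS values. How many of all genes separate in this way, here and below, was not computed. Against PBS, Kcnj10 rose by a log2 fold change of 0.80 ± 0.25 (SE, adjusted p = 0.0283). Against AAV control the log2 fold change was 0.53 ± 0.24 (adjusted p = 0.157), and 0.56 ± 0.16 with the replicate number as a block (adjusted p = 0.0384). The call against PBS was lost without KA IP #1 or #2 or without PBS IP #1 or #3 (adjusted p = 0.0582 to 0.0992). It was also lost with the replicate block (0.82 ± 0.27, adjusted p = 0.0501).

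In input, Kcnj10 stood at 32.9, 30.3 and 27.8 FPKM in KA, 16.6, 16.3 and 11.3 in AAV control and 12.8, 14.9 and 14.3 in PBS. Every KA input library was above every control library. Kcnj10 rose by 1.06 ± 0.15 on the log2 scale against AAV control (adjusted p = 0.00783) and by 1.10 ± 0.10 against PBS (adjusted p = 2.09e-05), and was a DEG (adjusted p under 0.05 and absolute log2 fold change of at least 1) in both. Without KA input #1 the adjusted p against AAV control was 0.0583. As these are bulk samples, a different number of cells of a type and a different amount of RNA per cell cannot be told apart.

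Kcnj16, the partner subunit, went the other way in IP. It stood at 4.88, 4.42 and 5.31 FPKM in KA IP, 13.0, 13.8 and 13.7 in AAV control IP and 13.0, 11.4 and 12.7 in PBS IP. All KA values lay far below all control values, on counts of 181 to 229 per KA library and 476 to 822 per control library. Kcnj16 fell by 1.41 ± 0.18 on the log2 scale against AAV control (adjusted p = 0.00237) and by 1.33 ± 0.18 against PBS (adjusted p = 0.00051). It was the only DEG among the 7 genes in either IP comparison. In input it did not show this difference, with 3.63, 3.97 and 3.79 FPKM in KA, 3.88, 3.70 and 2.59 in AAV control and 2.88, 4.58 and 3.60 in PBS. The log2 fold changes in input were 0.18 ± 0.17 against AAV control (adjusted p = 0.655) and 0.03 ± 0.17 against PBS (adjusted p = 0.90), and the KA range overlapped both control ranges.

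The level of Kcnj10 relative to Kcnj16 within a library summarizes both movements. This ratio of FPKM values, which are per length, was 29.5, 29.9 and 19.5 in KA IP, 8.19, 7.86 and 4.31 in AAV control IP and 5.78, 6.86 and 4.75 in PBS IP. In input it was 9.05, 7.63 and 7.35 in KA, 4.27, 4.41 and 4.36 in AAV control and 4.46, 3.26 and 3.99 in PBS. The KA values were above all control values within IP and within input.

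**Figure D2:**
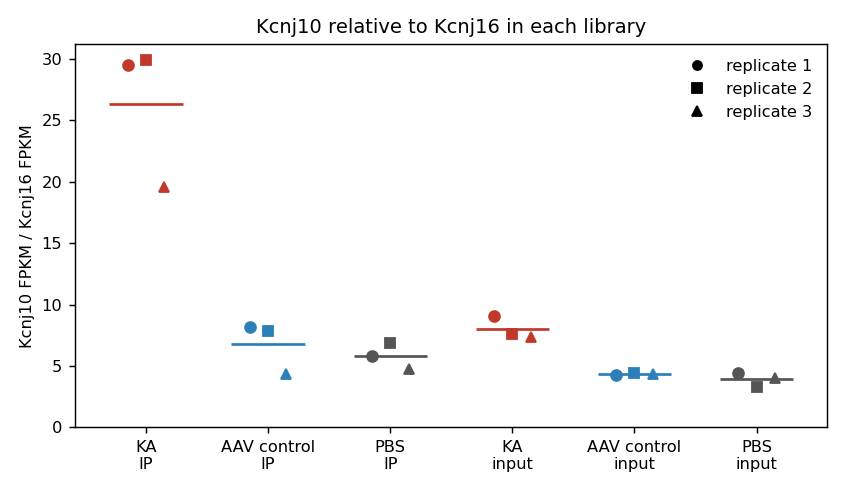
Kcnj10 FPKM divided by Kcnj16 FPKM in each library, by group, with replicates by shape and the group mean as a line. The mean is 26.3 in KA IP, 6.79 in AAV control IP and 5.80 in PBS IP, and 8.01, 4.35 and 3.90 in the corresponding inputs.

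Aqp4 was the most abundant of the 7 genes in KA IP and the second, after Mlc1, in every other group. It lies at chr18:15389496-15410982 on the minus strand, where it overlaps the antisense gene AC133525.2. Its FPKM was 383, 379.7 and 293 in KA IP, 204, 174 and 170.3 in AAV control IP and 194, 223 and 141 in PBS IP. All KA IP libraries were above all control libraries. Aqp4 rose by 0.99 ± 0.21 on the log2 scale against AAV control (adjusted p = 0.0145), just short of the DEG limit of 1, and its fitted difference from PBS was 0.89 ± 0.32 (adjusted p = 0.0525). The call against AAV control was lost without KA IP #1 or #2 or without AAV control IP #1 or #2 (adjusted p = 0.0599 to 0.0727), and without PBS IP #2 the difference from PBS passed the test (log2 fold change 1.13, adjusted p = 0.0284).

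The largest change of any of the 7 genes was that of Aqp4 in input. It stood at 77.0, 66.0 and 54.4 FPKM in KA, 15.3, 13.4 and 17.5 in AAV control and 18.2, 20.6 and 18.9 in PBS. The lowest KA value was above the highest control value by a wide margin. The log2 fold change was 2.08 ± 0.19 against AAV control (adjusted p = 0.00127), a 4.23-fold difference, and 1.75 ± 0.13 against PBS (adjusted p = 4.42e-06), a 3.37-fold difference. Aqp4 was thus a DEG in input in both comparisons.

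Dtna and Dag1, the dystrobrevin and dystroglycan of the anchoring complex, had lower levels than the channel gene Kcnj10 and Aqp4. Dtna lies at chr18:23415135-23659715 on the plus strand, where it overlaps the antisense gene Gm47898, which had at most 26 counts in a library against 1178 or more for Dtna. Dtna stood at 12.6, 12.9 and 12.3 FPKM in KA IP, 18.7, 18.4 and 11.98 in AAV control IP and 17.6, 14.9 and 17.9 in PBS IP. Dag1 stood at 11.98, 11.4 and 7.97 in KA IP, 19.2, 19.6 and 10.2 in AAV control IP and 15.2, 11.3 and 9.89 in PBS IP. AAV control IP #3, the control library with the high oligodendrocyte marker sum, lay below the KA range for Dtna and within it for Dag1. Without it the difference of Dag1 passed the test (log2 fold change -0.79, adjusted p = 0.00663). The log2 fold changes against AAV control were -0.30 ± 0.19 for Dtna (adjusted p = 0.305) and -0.58 ± 0.24 for Dag1 (adjusted p = 0.124). With the replicate block Dag1 fell by 0.55 ± 0.13 (adjusted p = 0.0204), while Dtna had an adjusted p of 0.213. Against PBS the values were -0.41 ± 0.18 for Dtna (adjusted p = 0.106) and -0.23 ± 0.21 for Dag1 (adjusted p = 0.41).

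In input, Dtna was at 11.5, 10.4 and 10.7 FPKM in KA, 8.71, 8.83 and 7.42 in AAV control and 7.47, 8.45 and 9.49 in PBS. Dag1 was at 8.79, 9.25 and 7.42 in KA input, 7.94, 7.81 and 5.51 in AAV control input and 7.14, 5.76 and 6.67 in PBS input. Only for Dag1 against AAV control did these groups overlap. Both rose against PBS, Dtna by 0.36 ± 0.10 on the log2 scale (adjusted p = 0.0222) and Dag1 by 0.36 ± 0.12 (adjusted p = 0.0476), and neither passed the test against AAV control (0.39 ± 0.13, adjusted p = 0.153, and 0.27 ± 0.14, adjusted p = 0.386). Each of these calls was lost when any of 4 of the 6 libraries was left out, for Dtna KA input #1 or any PBS input (adjusted p = 0.0621 to 0.0865) and for Dag1 KA input #1 or #2 or PBS input #2 or #3 (adjusted p = 0.117 to 0.193), and without AAV control input #3 Dtna rose against AAV control (0.37, adjusted p = 0.0429).

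Mlc1 and Hepacam had similar patterns. Mlc1 stood at 269, 244 and 239 FPKM in KA IP, 369, 323 and 437 in AAV control IP and 362, 449 and 304 in PBS IP. Hepacam stood at 59.0, 48.5 and 37.7 in KA IP, 80.7, 73.3 and 71.1 in AAV control IP and 72.6, 70.0 and 61.7 in PBS IP. For both genes every KA library was below every control library, and the share of all genes with such a separation was not computed. The log2 fold changes were -0.54 ± 0.23 (adjusted p = 0.133) for Mlc1 and -0.59 ± 0.18 (adjusted p = 0.0545) for Hepacam against AAV control, and -0.59 ± 0.28 (adjusted p = 0.125) and -0.51 ± 0.21 (adjusted p = 0.0757) against PBS. With the replicate block both fell against AAV control, Mlc1 by 0.52 ± 0.16 (adjusted p = 0.0489) and Hepacam by 0.60 ± 0.14 (adjusted p = 0.0172). Hepacam also passed against AAV control without AAV control IP #3 (adjusted p = 0.038), and both genes passed against PBS without PBS IP #3 (adjusted p = 0.0418 for Mlc1 and 0.0375 for Hepacam).

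In input both genes were higher after KA. Mlc1 was at 72.5, 67.7 and 65.2 FPKM in KA, 35.8, 31.7 and 46.6 in AAV control and 32.0, 46.4 and 43.5 in PBS. Hepacam was at 16.8, 15.3 and 15.6 in KA input, 12.3, 10.5 and 14.7 in AAV control input and 10.8, 13.5 and 13.7 in PBS input. KA input did not overlap either control for these genes. Against PBS, Mlc1 rose by 0.75 ± 0.12 on the log2 scale (adjusted p = 0.00135) and Hepacam by 0.32 ± 0.10 (adjusted p = 0.0393). With the replicate block this call of Hepacam was lost (adjusted p = 0.0527). Against AAV control the values were 0.84 ± 0.20 for Mlc1 (adjusted p = 0.0569, or 0.00728 with the replicate block) and 0.34 ± 0.18 for Hepacam (adjusted p = 0.386). The call of Hepacam against PBS was lost without KA input #1 or any of the PBS inputs (adjusted p = 0.0688 to 0.121), and without AAV control input #3 Mlc1 (1.08, adjusted p = 0.000479) and Hepacam (0.55, adjusted p = 0.0141) rose against AAV control.

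**Figure D3:**
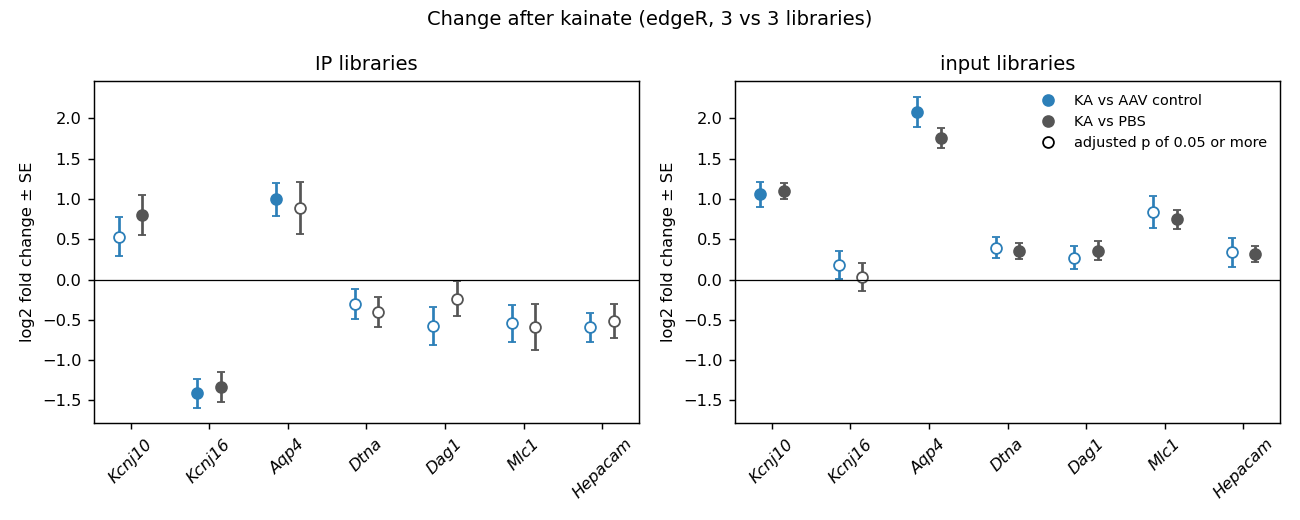
Log2 fold change of KA against AAV control (blue) and PBS (grey), with SE, in IP and in input, with open symbols where the adjusted p was 0.05 or more. In IP, Kcnj16 has the lowest values (-1.41 and -1.33) and Aqp4 and Kcnj10 are the genes above 0; in input all 14 values are above 0 and those of Aqp4 (2.08 and 1.75) are the highest.

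All 7 genes passed the expression filter in every comparison (FPKM above 1 in each library compared), so that no member was left out of these counts. In KA against AAV control in IP, 2 of 7 passed an adjusted p of 0.05 (1 rose, 1 fell), where 20.1% of all 9729 genes did, and 1 of 7 was a DEG, where 11.6% of all genes were. With the replicate block 6 of 7 passed, all but Dtna, where 34.5% of all genes did. In KA against PBS in IP, 2 of 7 passed (1 rose, 1 fell), where 37.0% of 9847 genes did, and 1 was a DEG, where 17.4% were. A count of 2 of 7 is near the share of all genes in both comparisons. Within sequencing run 1 alone (KA and AAV control #1 and #2), 7 of 7 were called, where 46.0% of 10474 genes were, with log2 fold changes of 0.42 for Kcnj10, -1.46 for Kcnj16, 1.08 for Aqp4, -0.47 for Dtna, -0.67 for Dag1, -0.37 for Mlc1 and -0.45 for Hepacam, and run 2 held 1 library of each group. The run 1 samples of a group were unusually alike. In IP, the squared difference between #1 and #2 averaged 9.59 (KA) and 8.35 (AAV control) times that of counting alone. It was 62.7 to 102 for pairs with #3, and 55.6 to 81.2 for PBS IP pairs, all from run 3. The calls in run 1 alone were made beside this small spread, and its part in them was not tested. The median log2 fold change of the 7 genes was -0.54 against AAV control and -0.41 against PBS, beside -0.02 and -0.01 for all genes tested.

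In KA against AAV control in input, 2 of 7 rose and none fell, where 4.49% of 10809 genes were called in either direction, and both were DEGs, where 2.70% were. With the block 3 of 7 rose, where 10.2% of all genes were called. Within run 1 alone 5 of 7 rose, where 41.6% of 11489 genes were called, by 0.94 for Kcnj10, 2.32 for Aqp4, 0.32 for Dtna, 1.06 for Mlc1 and 0.50 for Hepacam, while Kcnj16 had 0.01 and Dag1 0.20. Against PBS in input, 6 of 7 rose, where 27.7% of 10849 genes were called, and 2 were DEGs, where 5.35% were. On the same measure as in IP, run 1 inputs #1 and #2 differed by 4.48 (KA) and 4.66 (AAV control) times counting alone. Pairs with #3 in these groups differed by 39.6 to 109, and PBS input pairs by 7.22 to 19.8. The median log2 fold change of the 7 genes in input was 0.39 against AAV control and 0.36 against PBS, beside -0.03 and 0.01 for all genes tested. These comparisons share the KA libraries, and the microglia and astrocyte marker sums of KA input given above were also higher than those of both controls.

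Within each group, the ratio of IP to input tells how far a gene was concentrated in the anti-GFP pull-down over total RNA. All 7 genes were higher in IP than in input in all 9 homogenates. Among all genes tested the call rate was 34.4% in KA, 39.7% in AAV control and 56.3% in PBS, and 7 of 7 members were called higher in IP in each group. In KA, 6 of 6 oligodendrocyte markers were also called higher in IP (median log2 fold change 1.41), while 5 of 8 neuron markers were lower. In AAV control and PBS 0 oligodendrocyte markers were higher (medians -0.28 and -0.60). The KA values of Kcnj16 (0.58), Dag1 (0.51) and Dtna (0.43) lay below that median of 1.41. A higher level in KA IP thus does not by itself mark astrocyte ribosomes. Without 1 library, Kcnj16, Dtna and Dag1 lost this call in KA: Kcnj16 without KA IP #1 or KA input #1 or #2, Dtna without IP #1 or #2 or input #1 or #2, and Dag1 without IP #1 or #2 or any KA input.

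The order of the genes by this ratio was led by Aqp4 and Mlc1 in the controls. The mean IP to input ratio of FPKM (± SD, n = 3 homogenates) of Aqp4 was 5.37 ± 0.392 in KA, 12 ± 1.998 in AAV control and 9.64 ± 1.87 in PBS. That of Mlc1 was 3.66 ± 0.0558, 9.96 ± 0.503 and 9.32 ± 2.18. That of Kcnj10 was 4.15 ± 0.369, 6.11 ± 0.769 and 5.11 ± 0.843, and that of Hepacam 3.03 ± 0.557, 6.14 ± 1.15 and 5.46 ± 1.13. In the controls Aqp4 and Mlc1 overlapped each other, as did Kcnj10 and Hepacam. Kcnj16 had 1.29 ± 0.154 in KA, 4.12 ± 1.02 in AAV control and 3.51 ± 1.01 in PBS, so that after KA it joined Dtna (1.16 ± 0.0736, against 1.95 ± 0.288 and 2.004 ± 0.314) and Dag1 (1.22 ± 0.145, against 2.26 ± 0.363 and 1.86 ± 0.334) near a ratio of 1. The median ratio of all genes was 0.872 in KA, 0.914 in AAV control and 0.955 in PBS.

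**Figure D4:**
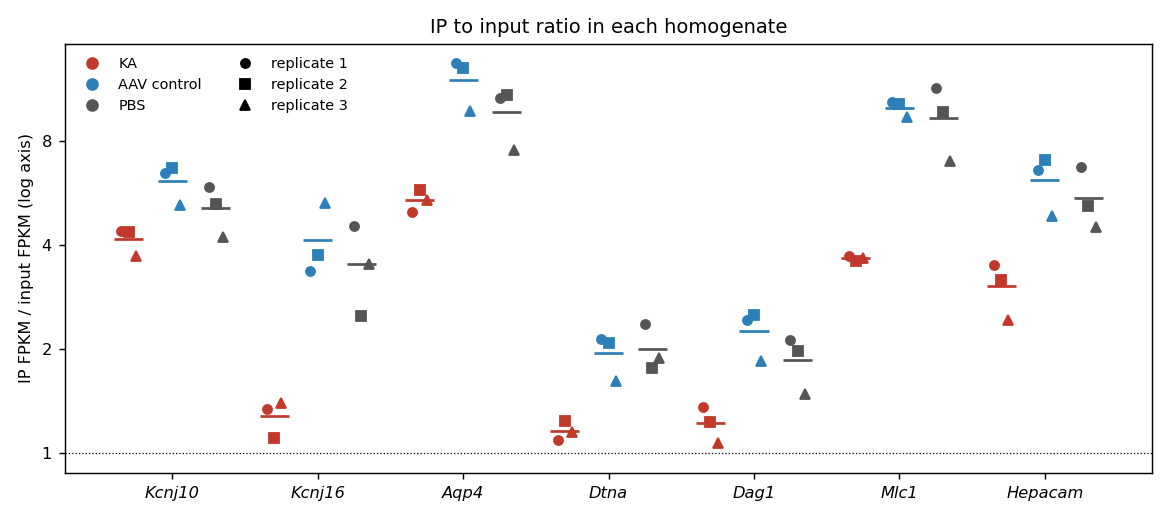
IP FPKM divided by input FPKM (log axis) in each of the 9 homogenates, with groups by colour, replicates by shape and the mean as a line; the dotted line marks a ratio of 1. KA homogenates are below all control homogenates for every gene except Kcnj10, where KA (3.72 to 4.38) overlaps PBS (4.20 to 5.87). The share of all genes with such a separation, here or in the FPKM of single libraries, was not computed.

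An interaction term tested whether the KA difference was unequal in IP and in input, over the 12 libraries of each pair of groups. Against AAV control, 4 of 7 genes had a lower ratio after KA, where 13.3% of 9729 genes were called in either direction: Kcnj16 by a log2 difference of -1.55 ± 0.24 (adjusted p = 0.00152), Mlc1 by -1.34 ± 0.30 (adjusted p = 0.0115), Aqp4 by -1.04 ± 0.26 (adjusted p = 0.0193) and Hepacam by -0.89 ± 0.24 (adjusted p = 0.0306). The values of the other 3 were -0.80 ± 0.28 for Dag1 (adjusted p = 0.0837), -0.65 ± 0.21 for Dtna (adjusted p = 0.0591) and -0.48 ± 0.28 for Kcnj10 (adjusted p = 0.305). With the homogenate as a block all 7 were called, where 35.7% of all genes were, and the largest adjusted p was 0.0271 for Kcnj10. The calls of Aqp4, Mlc1 and Hepacam were each lost without 1 homogenate: that of Aqp4 without KA or AAV control #1 or #2, that of Mlc1 without KA #1 or #2 or AAV control #1, and that of Hepacam without any KA homogenate or AAV control #1 or #2.

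Against PBS, 4 of 7 genes again had a lower ratio after KA, where 25.0% of 9847 genes were called. The log2 differences were -1.36 ± 0.24 for Kcnj16 (adjusted p = 0.00154), -1.34 ± 0.30 for Mlc1 (adjusted p = 0.00635), -0.83 ± 0.23 for Hepacam (adjusted p = 0.0187) and -0.75 ± 0.18 for Dtna (adjusted p = 0.00963). Those of Aqp4 (-0.86 ± 0.33, adjusted p = 0.0711), Dag1 (-0.59 ± 0.27, adjusted p = 0.124) and Kcnj10 (-0.29 ± 0.26, adjusted p = 0.43) did not pass. With the homogenate block 6 of 7 were called, all but Kcnj10, where 37.6% of all genes were, Aqp4 with an adjusted p of 0.023 and Dag1 with 0.031. The call of Dtna was lost without KA #1 and that of Hepacam without KA #2 or #3 or PBS #1 or #2, and Aqp4 passed without PBS #3 (adjusted p = 0.0262). The astrocyte markers moved in the same test too: 5 of 8 had a lower ratio after KA against AAV control and 6 of 8 against PBS, with list medians of -1.32 and -1.28, and with the homogenate block 8 of 8 in both. Of the neuron markers 7 of 8 and 6 of 8 had a higher ratio (medians 1.52 and 1.15), as did 2 of 6 and 6 of 6 oligodendrocyte markers (medians 1.75 and 1.91), while all 3 microglia markers tested, of 6, had a lower one in both (medians -1.57 and -1.80).

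With all libraries, the tests did not tell the controls apart by these genes. Their ranges did not overlap for Kcnj16 in IP (11.4 to 13.034 FPKM in PBS, 13.042 to 13.8 in AAV control). Nor did they for Aqp4 in input (18.2 to 20.65 FPKM in PBS, 13.4 to 17.5 in AAV control). In PBS against AAV control 0 of 7 genes were called in IP and 0 of 7 in input by edgeR, DESeq2 or limma-voom, where 0% of 10667 and 0% of 10924 genes were called by edgeR, and 0 of 7 had an unadjusted p under 0.05 in either. Over all genes, 1153 in IP and 901 in input had an unadjusted p under 0.05, and DESeq2 called 16 and 30 genes. The log2 fold changes of the 7 genes ran from -0.36 (Dag1) to 0.10 (Aqp4) in IP and from -0.07 (Dag1) to 0.35 (Aqp4) in input. The ratio of IP to input also gave 0 of 7 (0% of 10667 genes by edgeR, with 454 at an unadjusted p under 0.05, and 0 by DESeq2), with values from -0.32 to 0.00. AAV control input #3 was the AAV control input of sequencing run 2 and had the low choroid plexus marker sum. Without it, Aqp4 (log2 fold change 0.51, adjusted p = 0.00111) and Mlc1 (0.34, adjusted p = 0.0268) were higher in PBS input than in AAV control input. In that refit, of run 1 against run 3, 4076 of 11164 genes tested were called.

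The partners of the 7 proteins were read from 4 lists of 57 genes in all, each measured. Of the 20 genes of the dystrophin complex and its laminins and agrin, 10 passed the filter in IP; against AAV control 1 fell and none rose, and against PBS 3 fell and none rose, with median log2 fold changes of -0.20 and -0.24. Of all genes tested 20.1% and 37.0% were called, so that both shares of the list lay below those of all genes. With the replicate block 3 of the 10 fell against AAV control, where 34.5% of all genes were called. Dmd, which encodes dystrophin, fell against both, from 5.07 FPKM in AAV control IP and 4.86 in PBS IP to 2.18 in KA IP (log2 fold change -1.17 ± 0.17, adjusted p = 0.00407, and -1.16 ± 0.21, adjusted p = 0.00226). Agrn, which encodes agrin, and Dtnb, a second dystrobrevin, fell against PBS (-0.77 ± 0.25, adjusted p = 0.0321, and -0.58 ± 0.20, adjusted p = 0.0405). These calls were lost without KA IP #1 or #2 or PBS IP #3, that of Agrn also without PBS IP #2 and that of Dtnb without KA IP #3 or PBS IP #1 (adjusted p = 0.0619 to 0.126).

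Of 13 genes for enzymes that glycosylate dystroglycan, the step that lets it bind laminin, 9 passed the filter. Against AAV control 4 rose and none fell, with a median of 0.42, and against PBS 2 rose and 2 fell, with a median of 0.24. The 4 of 9 called in each stand beside 20.1% and 37.0% of all genes. With the replicate block 4 rose against AAV control, where 34.5% of all genes were called. Pomgnt1 rose against both (0.78 ± 0.15, adjusted p = 0.0121, and 0.66 ± 0.17, adjusted p = 0.0125), as did Gmppb (0.70 ± 0.20, adjusted p = 0.0438, and 0.82 ± 0.19, adjusted p = 0.00764). Pomt2 (-0.60) fell against PBS. Against AAV control the calls of Pomgnt1 and Gmppb were lost without KA IP #1 or #2 or AAV control IP #2, and that of Gmppb also without KA IP #3 or AAV control IP #1 (adjusted p = 0.0557 to 0.138). Against PBS those of Pomgnt1 and Pomt2 were lost without KA IP #1 or #2, and that of Pomt2 also without PBS IP #3 (adjusted p = 0.0523 to 0.112). Pomgnt1, Gmppb and Pomt2 each overlap a protein-coding gene on the other strand, whose reads could be counted with theirs if strand was not used.

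Of 11 partners of Mlc1 and Hepacam and genes of cell volume control, 8 passed the filter, and against AAV control 3 rose and 2 fell, against PBS 4 rose and 2 fell, beside 20.1% and 37.0% of all genes called. With the replicate block 4 rose and 3 fell against AAV control, where 34.5% of all genes were called. Gja1, which encodes connexin 43, the gap junction protein that Hepacam binds, fell from 80.9 and 63.6 FPKM in AAV control and PBS IP to 29.0 in KA IP (log2 fold change -1.42 ± 0.20, adjusted p = 0.00325, and -1.16 ± 0.25, adjusted p = 0.00562). Gjb6 (connexin 30) fell against AAV control (-0.998 ± 0.23, adjusted p = 0.0205) and had -0.36 ± 0.24 against PBS (adjusted p = 0.259). Clcn2, the chloride channel bound by GlialCAM, fell against PBS (-1.67 ± 0.30, adjusted p = 0.00234) and had -0.81 ± 0.42 against AAV control (adjusted p = 0.218), on means of 1.39 to 4.41 FPKM. Clcn2 overlaps 2 protein-coding genes on the other strand, with up to 5978 and 681 counts in a library, and Atp1b1 overlaps 1, with up to 457, whose reads could be counted with theirs if strand was not used. Atp1b1, a sodium pump subunit, rose against both controls (1.79 ± 0.19, adjusted p = 0.00102, and 1.65 ± 0.23, adjusted p = 0.000572), as did Cav1, caveolin-1 (1.53 ± 0.18, adjusted p = 0.00177, and 1.79 ± 0.26, adjusted p = 0.000676). The volume-regulated anion channel subunit Lrrc8b rose against both (1.05 and 0.93) and Lrrc8c against PBS (0.82), while Lrrc8a, the obligatory subunit, had -0.31 and 0.00. The call of Gjb6 was lost without KA IP #2 or AAV control IP #1 or #2 (adjusted p = 0.0577 to 0.0805). Those of Lrrc8b and Lrrc8c were lost without KA IP #1 or #2, of Lrrc8b also without AAV control IP #1 or #2 or PBS IP #2 or #3, and of Lrrc8c without PBS IP #1 or #2 (adjusted p = 0.0513 to 0.0951). Atp1b1 is also expressed by neurons, whose marker sum was higher in KA IP.

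Of 13 other glial potassium and water routes, 7 passed the filter in IP, of which 2 rose and 2 fell against AAV control and 2 rose and 1 fell against PBS, beside the same 20.1% and 37.0% of all genes called. Kcnk2, the two-pore channel TREK-1, fell against both controls (-1.78 ± 0.29, adjusted p = 0.0059, and -1.20 ± 0.22, adjusted p = 0.00262), and its span holds the pseudogene Pdcd5-ps, which has up to 180 counts in a library. Slc12a4, a potassium-chloride cotransporter, fell against AAV control (-1.14 ± 0.23, adjusted p = 0.0133). Slc12a2, the sodium-potassium-chloride cotransporter NKCC1, rose against both (1.29 ± 0.29, adjusted p = 0.0192, and 1.52 ± 0.32, adjusted p = 0.00486), as did Kcnj9, a G protein-gated channel gene that neurons also express (1.28 ± 0.19, adjusted p = 0.00381, and 0.64 ± 0.19, adjusted p = 0.0214). Slc12a2 lost its call against AAV control without KA IP #1 or #2 or AAV control IP #1 (adjusted p = 0.0672 to 0.0682), Slc12a4 without KA IP #2 or AAV control IP #2 (0.0505 and 0.0552) and Kcnj9 against PBS without KA IP #1 or #2 or PBS IP #1 or #2 (adjusted p = 0.0559 to 0.0685). Atp1b2, an astrocyte sodium pump subunit, had 0.37 and 0.47 in IP and did not pass the test. In input Atp1b2 rose against both controls (1.001 ± 0.16, adjusted p = 0.0127, and 1.11 ± 0.11, adjusted p = 7.2e-05), and Kcnj2, the Kir2.1 channel gene, rose as well (1.81 and 1.99).

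The genes whose level over the 9 IP libraries was most like that of each member, by Pearson correlation of log2(FPKM + 1) among 9584 genes, were Igfbp5 (0.98), Slc14a1 and Irf2bpl for Kcnj10, Gm11681 (0.98), Ankrd29 and Nnat for Kcnj16, and Fam219a (0.97), Cav1 and Prnp for Aqp4. They were Kcna2 (0.98), Fmn2 and Etaa1 for Dtna, Rassf2 (0.98), Axl and Tmem47 for Dag1, Gpr37l1 (0.99), Acsbg1 and Ldhb for Mlc1, and Phyh (0.99), Nde1 and Pxmp2 for Hepacam. No member was among the 3 nearest genes of another. The libraries share their groups, runs and marker sums, and the correlations are given as a description of these 9 libraries.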

How the data were processed

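RNA-seq was performed on 18 libraries (KA, AAV control and PBS, each with 3 IP and 3 input samples). Per the labels' processing notes and the study's methods, the authors aligned reads to mm10 with STAR, and the notes also name featureCounts and edgeR; versions, annotation release, strand setting and treatment of multi-mapping reads are not given in the sources used here. The authors deposited raw counts and FPKM per gene symbol. The deposited FPKM equal count over library total over a fixed length for 99.82% of 11010 genes checked (within 1%).

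The main test was the quasi-likelihood F test of edgeR 4.0.16 under R 4.3.3 on TMM-scaled counts, with Benjamini-Hochberg adjustment over all genes tested, for genes with FPKM above 1 in every library compared (for ratios, every IP library). A gene was called at an adjusted p under 0.05 and a DEG where its log2 fold change was also at least 1 in size. SE is the fold change over the root of F. DESeq2 1.42.0, limma-voom (limma 3.58.1) and other settings were alternatives, and the tests were checked on simulated counts. Samples are pools of separate mice as far as the labels say; library totals of 7991681 to 16032180 limit precision.

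IP and input of a number share a homogenate. Same-numbered KA and AAV control samples deviated together (r of 0.348, 0.529 and 0.551 in IP and 0.352, 0.444 and 0.550 in input). For #2 in input, however, the own number was not the best match. The numbers were taken to pair these groups from these same data, as the labels state no pairing. Same-numbered samples of these groups also share a sequencing run, and the part of the run in these correlations was not tested. For PBS samples the correlations by number were of both signs (-0.294 to 0.354 in the 4 comparisons with PBS). The highest, 0.354 for PBS and AAV control #1 in IP, was close to the 0.348 of KA and AAV control #1. The main test has no block in any comparison. For the 7 genes, blocked values or counts are given beside it where they change a call. The 7 genes and all lists were chosen with earlier results of these data known. Named partner genes are those called in KA against AAV control or PBS in IP, at most 8 per list, with core genes of a list. Some genes counted in the lists are not reported here by name. Names were matched to GENCODE vM21 (GRCm38).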

Additional observations from a re-analysis of the deposited data

Results flagged for a closer look

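By the interaction term of the edgeR fit, the effect of KA differed between IP and input for 4 of the 7 genes against each control. This term tests the difference of the log2 fold changes itself. Against AAV control these differences (IP minus input) were -1.55 for Kcnj16, -1.04 for Aqp4, -1.34 for Mlc1 and -0.89 for Hepacam. Against PBS they were -1.36 for Kcnj16, -0.75 for Dtna, -1.34 for Mlc1 and -0.83 for Hepacam. Kcnj16, Mlc1 and Hepacam were named by both controls, which share the KA libraries. When 1 homogenate was left out in turn, only Kcnj16 kept its call in every refit against AAV control. Against PBS, Kcnj16 and Mlc1 did. For Mlc1 and Hepacam the fitted difference was below 0 in IP and above 0 in input, for Aqp4 it was above 0 in both, and for Kcnj16 it was below 0 in IP and near 0 in input. Of all genes tested 13.3% against AAV control and 25.0% against PBS were called, and with the homogenate block 7 and 6 of the 7 genes were, beside 35.7% and 37.6% of all genes. Of the 8 astrocyte markers 5 and 6 also had a lower ratio after KA, and 8 in both with the block. Groups of 3 samples were too small for an outlier test.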

How the results depend on the processing

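Each of the 12 comparisons was refitted with DESeq2's size factors, with no FPKM filter, with DESeq2, with limma-voom, with all 18 libraries in 1 fit, with a replicate block and without each library in turn; KA against AAV control was also refitted with the sequencing run as a covariate and, chosen after seeing the data, in run 1 alone. Of 1050 refitted log2 fold changes of the 7 genes, 894 kept their direction and side of the threshold, 67 lost and 61 gained a call, and 28 changed sign, none of them a called value. For these losses and gains the cause was not tested.

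The number of genes called out of 7 moved as follows. In KA against AAV control in IP it was 2, with 4 in the fit of all 18 libraries, 6 with the replicate block or the run covariate, 7 in run 1 alone and 1 to 4 without 1 library. In KA against PBS in IP it was 2, with 4 by DESeq2, 6 with all 18 libraries, 1 with the replicate block and 1 to 3 without 1 library. In input it was 2 against AAV control, with 4 with the run covariate, 5 in run 1 alone and 1 to 5 without 1 library, and 6 against PBS, with 3 without the filter, 2 with all 18 libraries and 3 to 6 without 1 library. In PBS against AAV control in input it was 0, with 0 to 2 without 1 library. For IP against input in KA it was 7, with 4 to 7 without 1 library. For the ratio it was 4 against AAV control, with 2 without the filter, 7 with the block or in run 1 alone and 1 to 7 without 1 homogenate, and 4 against PBS, with 2 without the filter. The block changed no other of these counts by over 1.5 times. PBS samples share only a number with the others, and 3 of their same-number correlations in IP were below 0.

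Sign changes were between values near 0. In PBS against AAV control in IP, leaving out 1 library gave -0.18 to 0.32 for Aqp4, -0.053 to 0.18 for Dtna, -0.26 to 0.23 for Mlc1 and -0.23 to 0.048 for Hepacam, and without the filter Dtna had -0.020 and Mlc1 -0.046. In input the ranges were -0.15 to 0.047 for Kcnj10, -0.038 to 0.26 for Kcnj16, -0.22 to 0.0011 for Dag1, -0.018 to 0.34 for Mlc1 and -0.086 to 0.24 for Hepacam, and in KA against PBS in input -0.076 to 0.23 for Kcnj16. For the ratio of PBS to AAV control they were -0.10 to 0.083 for Dtna and -0.27 to 0.10 for Mlc1, and Dtna had -0.012 with DESeq2's size factors, -0.012 by DESeq2 and -0.099 without the filter. Without the filter the median of all genes moved by -0.55 in KA against PBS in IP, and that of the 7 genes by 0.18.

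Counts of calls over all genes moved further. KA against AAV control in IP had 1960 calls, with 3933 without the filter, 2968 with all 18 libraries, 3356 with the replicate block, 3914 with the run covariate, 4823 in run 1 alone and 843 (without KA IP #2) to 3369 (without AAV control IP #3) without 1 library. In input it had 485, with 1770, 878 by DESeq2, 1101 with the block, 1731 with the covariate, 4781 in run 1 alone and 135 (without KA input #1) to 2643 (without AAV control input #3). KA against PBS had 3647 in IP, with 7028 without the filter, and 3006 in input, with 4929 without the filter, 1023 with all 18 libraries and 1716 (without KA input #1) to 4820 (without KA input #3) without 1 library. PBS against AAV control had 0 in IP and in input, with 261 and 234 without the filter, 31 with all 18 libraries in IP, 1 with the block in input, and 1122 and 4076 without AAV control #3; its ratio had 0, with 41 without the filter and 1 with the block or without AAV control #3. IP against input had 3477 calls in KA, 3959 in AAV control and 5853 in PBS, with 5753, 6322 and 8789 without the filter, 5336 and 6102 with the block in KA and AAV control, and 2288 in KA without KA input #2. The ratio had 1291 calls against AAV control, with 3478 with the block, 2859 with the covariate, 3516 in run 1 alone and 511 to 2191 without 1 homogenate, and 2460 against PBS, with 3705 with the block and 1383 to 1590 without KA #1, KA #2 or PBS #2. The filter's removal adds genes of low counts to the test. Run 1 alone has 2 samples a group, which differed less than any other pair of replicates of their kind (IP or input).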
